A study of Coregonus lavaretus with 13 samples.

Results

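The livers of whitefish exposed to microcystin-LR (MC-LR) for 9 days were compared directly with those exposed for 6 days, over the putative long non-coding RNA (lncRNA) contigs that stood in the deposited tables of both days. A contig is a transcript assembled de novo from the reads. Each table lists only contigs that differed from the PBS controls of day 1. The ID of 2075 contigs was in both tables, of 4729 contigs in any of the 3 tables of the series. The day 6 table held 3866 contigs and that of day 9 held 2543, and the 1791 contigs of day 6 alone and 468 of day 9 alone were not analysed here, since the tables pair them with no counts from the exposed fish of the other day. Of the 2075 shared contigs, 729 had a higher mean than the PBS livers on both days and are called raised, 1346 had a lower mean on both days and are called lowered, and 0 changed side. These sides come from the contrast that put the contigs in the tables and are a description, not a result.

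All fish were juvenile Coregonus lavaretus of the Rutki-strain. The day 6 group was 3 fish with 1 intraperitoneal injection of MC-LR (100 μg per kg body weight), and the day 9 group was 3 other fish that received the same dose again on day 7, so had 2 injections. The controls were 4 fish injected with PBS, the solvent of the toxin, and sampled on day 1. They carry the comparison of scale between the tables, and no PBS fish of day 6 or 9 was used here. Groups were kept in separate tanks, so the day, the second injection and the tank cannot be told apart. Each library was RNA from a fragment of liver of 1 fish, in which fewer cells of a type and less RNA per cell cannot be told apart. The contigs have no gene name, so the tissue could not be checked by marker genes, and none of their IDs matched the reference table of gene names (0 IDs).

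MC-LR is a cyclic peptide toxin of cyanobacteria that enters hepatocytes through organic anion transporters and blocks serine/threonine protein phosphatases, and the liver is its main target. LncRNAs are transcripts without a recognised open reading frame, and known members regulate genes by binding chromatin, proteins or other RNAs. The contigs described here showed no similarity to the databases the authors searched, so none has a known role. A name such as TRINITY_DN83630_c5_g3_i1 gives a read cluster (DN and c), a putative gene (g) and an isoform (i) of the assembly.

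Over the shared contigs, the exposed livers held 660900 to 936482 reads each and the PBS livers 775023 to 964543. Counts were divided by the authors' size factors, recovered from the tables, with those of day 9 brought to the day 6 scale through the PBS livers. The results are called normalized counts. The authors' day 9 factors were 1.24 to 1.37 before this step. After it, the size factors were 1.07 to 1.18 on day 6 and 1.39 to 1.53 on day 9. Their day 9 over day 6 ratio was 0.38 on the log2 scale, whereas the clean reads of the libraries differed by -0.02 on that scale. Scaling by clean reads in place of size factors moved the day 9 factors by 0.39 against those of day 6 on the log2 scale, which raises day 9 over day 6 differences by about that much, by unequal amounts between contigs, and directions that turn with it are given as such.

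Liver 3 of day 9 stood apart from the other 5 exposed livers. Among the lowered contigs it held the strictly highest normalized count in 682 of 1346 contigs (50.7%), against 54 to 163 contigs for each other liver. Among the raised contigs it held the strictly lowest value in 325 of 729 (44.6%), against 39 to 135 for each other liver. It also had the highest size factor, 1.53. The median distance of the lowered contigs from the PBS mean, as a difference of log2(normalized count + 1), was -4.28, -4.43 and -4.57 in the livers of day 6 in the order of their numbers, and -4.12, -4.43 and -3.12 in those of day 9. Livers 1 and 2 of day 9 therefore lay within or close to the range of day 6, and liver 3 lay nearer to PBS. For the raised contigs the same median was 3.52, 3.73 and 3.75 for the day 6 livers and 3.38, 3.70 and 3.07 for the day 9 livers. Here the ranges of both days overlapped, with liver 3 of day 9 again nearest to PBS. Over livers, neither difference between days passed the threshold (exact permutation test, two-sided, p = 0.2 for raised and p = 0.3 for lowered contigs, 0.1 being the smallest p this design allows).

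**Figure D1:**
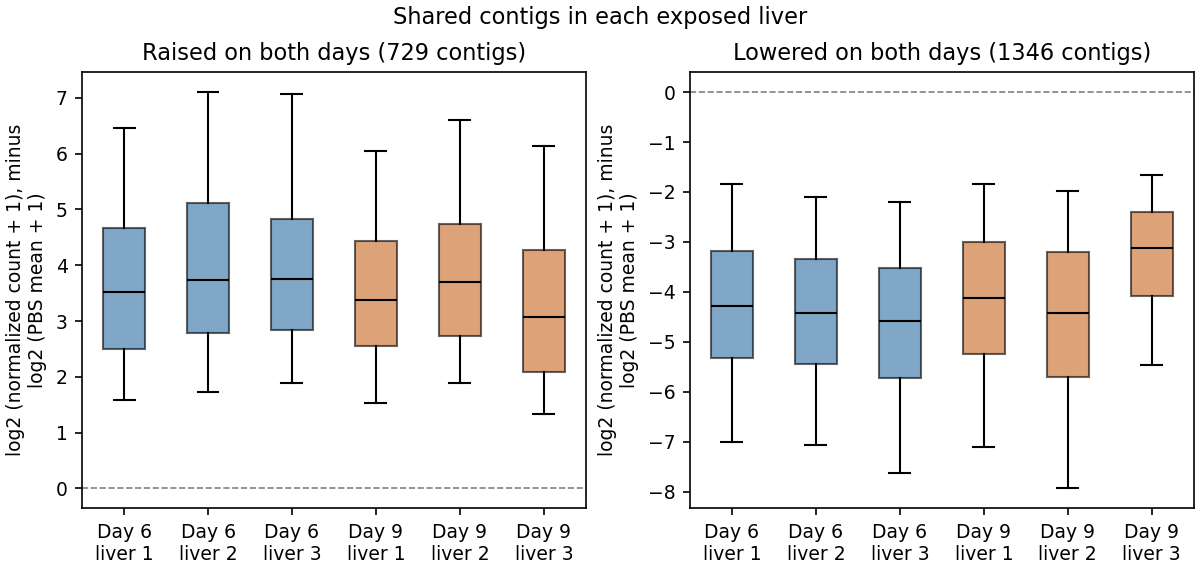
Difference of log2(normalized count + 1) from the PBS mean in each exposed liver, for the raised contigs (left) and the lowered contigs (right). Boxes span the quartiles, black lines are medians and whiskers the 5th to 95th percentiles over contigs; liver 3 of day 9 has the median nearest to 0 in both panels, 3.07 and -3.12.

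Summed over the raised contigs, the normalized count was 487047, 595529 and 802135 in the livers of day 6 and 513287, 497468 and 335736 in those of day 9. The means were 628237 ± 160070 (SD, n = 3) and 448830 ± 98262 (SD, n = 3), against 39622 ± 2464 (SD, n = 4) in PBS livers, and the difference between days did not pass (two-sided exact permutation test, p = 0.3). The sum of the lowered contigs was 73039, 84275 and 49907 on day 6 and 58279, 50232 and 136490 on day 9, against 898441 ± 127656 (SD, n = 4) in PBS livers (two-sided exact permutation test between days, p = 0.8). The highest sum of lowered contigs was that of liver 3 of day 9, and the other 2 livers of that day lay within the range of day 6. The distance from the PBS sums follows from how the contigs were selected.

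Contig by contig, the comparison was made with edgeR's quasi-likelihood test on the 1719 contigs that had at least 10 reads over the 6 exposed fish. All 729 raised contigs and 990 of the 1346 lowered contigs reached that minimum, and 356 lowered contigs did not. Some lowered contigs passed the minimum through the day on which they were higher, so counts over the 990 are given as a description. At a Benjamini-Hochberg adjusted p under 0.05, 1 contig was higher on day 9 (0.0582% of those tested) and 0 were lower (0%). At an unadjusted p under 0.05, edgeR gave 96 contigs higher (5.58%) and 102 lower (5.93%). The test is two-sided, so the level of 0.05 covers both directions together. Of the 96, 22 had no read on day 6 and passed the minimum through day 9 alone, so they could only be higher. The Wald test of DESeq2 was run on the same counts with its outlier screen off. It called 11 contigs higher (0.64%) and 15 lower (0.873%), all of which had an edgeR adjusted p between 0.0173 and 0.3595. Of the 11, 1 had no read on day 6. Of the DESeq2 calls, 25 of 26 had livers that did not overlap between days. Over all contigs tested, 9.95% lay above and 9.48% below without overlap. Calls and non-overlap rest on the same 6 livers, so the one is no separate support for the other. By class, DESeq2 called 4 raised contigs higher and 15 lower, and 7 lowered contigs higher and 0 lower. A 95% interval of a raised contig reached 1.06 to either side on the log2 scale (median), and that of a lowered contig 2.37. These intervals come from the spread between fish and are not adjusted for the number of contigs. A contig whose own interval left out 0 did not thereby pass the adjusted test.

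**Figure D2:**
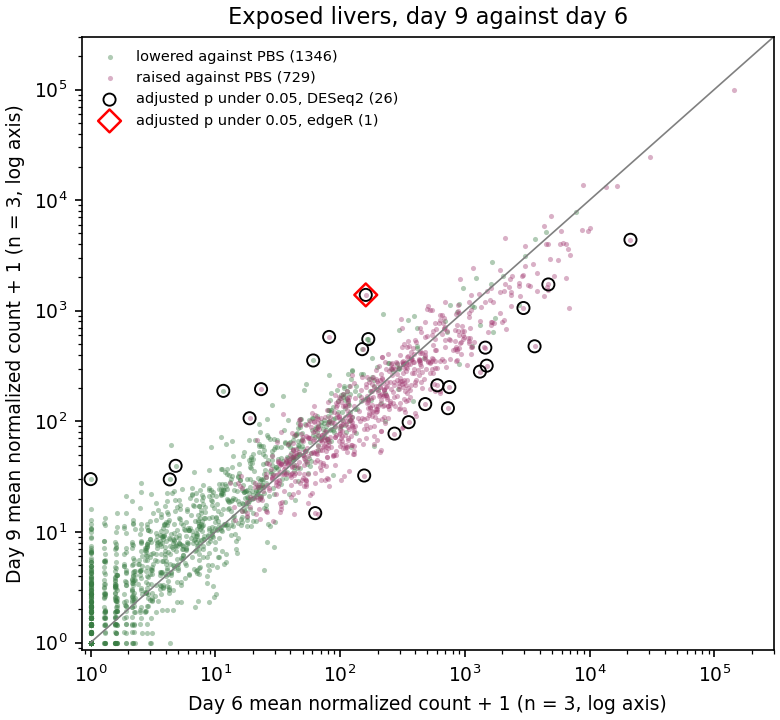
Mean normalized count + 1 of each of the 2075 shared contigs on day 6 (x axis, log) and day 9 (y axis, log), n = 3 fish a day, with the line of equal values. Black rings are the 26 contigs with an adjusted p under 0.05 in DESeq2 and the red diamond is TRINITY_DN83630_c5_g3_i1, the 1 such contig in edgeR; most points lie close to the line.

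The contig that passed in edgeR was TRINITY_DN83630_c5_g3_i1. Its normalized count was 164, 156 and 159 in the livers of day 6 and 1192, 1555 and 1420 in those of day 9, against 16.1, 61.7, 4.33 and 6.84 in the PBS livers. The exposed livers of a day were close to each other and the days were far apart. The contig was 8.70-fold higher on day 9 (log2 difference 3.12, SE 0.35, 95% interval 2.33 to 3.91, adjusted p = 0.0173 by edgeR's quasi-likelihood test with Benjamini-Hochberg adjustment). Without any 1 liver the log2 difference stayed between 3.03 and 3.22, but without each liver other than liver 3 of day 9 the adjusted p of edgeR was 0.0671 to 0.400, and with the PBS fish in the fit it was 0.158. DESeq2 gave an adjusted p of 7.55e-17.

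Of the raised contigs, 29 had all livers of day 9 above all of day 6 and 151 had all of them below. The shares over all contigs tested were 9.95% above and 9.48% below. The raised contigs leaned below, with a median log2 difference of -0.28 against 0.20 over all contigs tested, 250 above 0 and 479 below. The median over all contigs tested was 0.05 when at least 60 reads were asked for. The sign of the raised median turned with the scaling, which moves all contigs nearly alike. Scaled by clean reads, 92 raised contigs lay above and 63 below without overlap, beside 229 and 5 of the lowered contigs. The shares of 9.95% and 9.48% hold for the size factors only. With clean reads the raised median was 0.13 against 0.60 over all contigs. Of the raised contigs 56.9% lay above 0, against 75.3% of all contigs. The raised median lay below that of all contigs under either scaling. A shift nearly alike for all contigs could hardly change this order, so it is no separate support. All contigs tested include the lowered ones, some of which passed the minimum through the day on which they were higher. Without liver 3 of day 9 the raised median was -0.20, nearer to that of all contigs tested, which was then -0.02. Without overlap, 78 raised contigs then lay above and 175 below, beside 159 and 90 of the lowered contigs. With 2 livers on day 9 contigs separate more easily, so these counts do not compare with those over all livers.

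**Figure D3:**
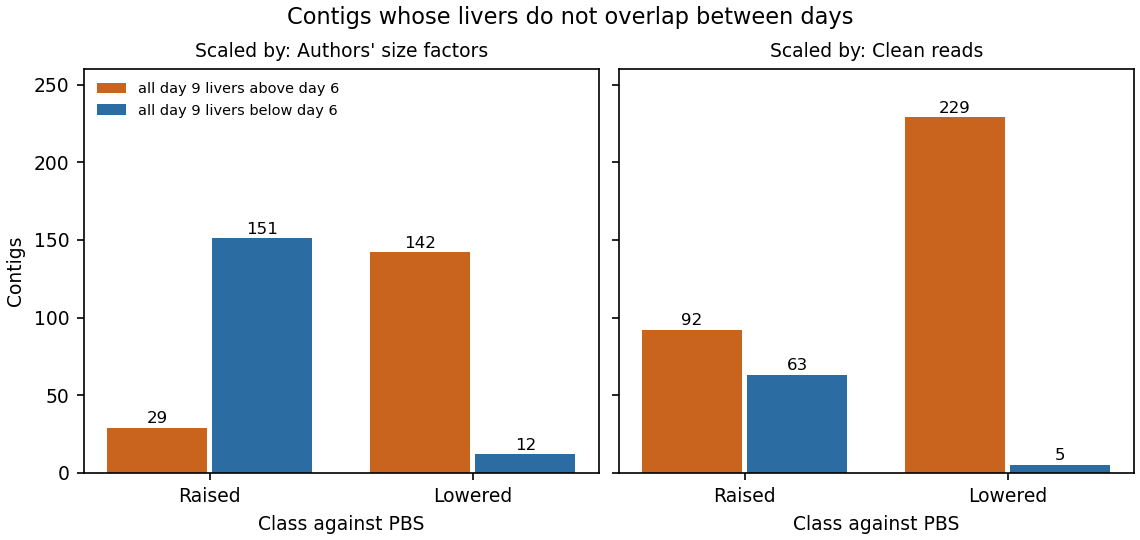
Number of tested contigs with all day 9 livers above (orange) or below (blue) all day 6 livers, by class. Counts were scaled by the authors' size factors on the day 6 scale (left) and by clean reads (right). The raised contigs go from 29 above and 151 below to 92 and 63, while the lowered contigs lean above in both panels.

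TRINITY_DN81362_c11_g2_i1 had the next smallest p among raised contigs that were higher on day 9. Its normalized count was 19.5, 30.9 and 16.4 on day 6 and 235, 195 and 154 on day 9, and it was 0 in 3 PBS livers and 1.96 in the other. The log2 difference was 3.12 (SE 0.44) with an adjusted p of 0.0563 in edgeR, which did not pass, and of 1.07e-07 in DESeq2, which did. TRINITY_DN100523_c4_g2_i1 stood at 60.2, 130 and 51.9 on day 6 and at 392, 700 and 643 on day 9, a mean ratio of 7.16 (adjusted p = 0.165 in edgeR and 2.91e-05 in DESeq2). TRINITY_DN110305_c1_g3_i1 stood at 19.5, 10.3 and 23.7 on day 6 and at 113, 134 and 70.4 on day 9, a mean ratio of 5.93 (adjusted p = 0.189 in edgeR and 0.00122 in DESeq2). In all of these contigs the livers of both days lay above every PBS liver. That those of day 9 lay highest follows from the choice of the class. TRINITY_DN113564_c2_g1_i1 was at 161, 161 and 137 on day 6 and at 357, 679 and 301 on day 9, and passed in neither tool (adjusted p = 0.322 in edgeR and 0.0507 in DESeq2).

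Among raised contigs that were lower on day 9, TRINITY_DN112529_c8_g3_i1 had the smallest p. It was nearly absent from PBS livers, with 2.15, 0.995, 0 and 0 normalized counts. It stood at 671, 873 and 708 on day 6 and at 157, 196 and 256 on day 9. The days did not overlap, and the mean of day 6 was 3.70-fold that of day 9 (log2 difference -1.89, SE 0.36; adjusted p = 0.189 in edgeR and 0.000325 in DESeq2). Another contig of the same read cluster, TRINITY_DN112529_c8_g2_i1, picked out here after its values were seen, ran alongside. It was at 3066, 2484 and 3308 on day 6 and at 992, 1071 and 1108 on day 9, with at most 9.95 in a PBS liver (log2 difference -1.48, SE 0.34; adjusted p = 0.244 in edgeR and 0.00159 in DESeq2). Sequences that share a cluster can share reads, so the pair is not counted as separate evidence.

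The most abundant of the contigs named in that class was TRINITY_DN105122_c5_g1_i18. It had 17793, 26263 and 19824 normalized counts on day 6 and 7012, 3327 and 2793 on day 9, against 77.6 to 198 in PBS livers. On day 1 it had been at 1604, 963 and 3316 in the MC-LR livers, so its level was highest on day 6. The day 6 mean was 4.86-fold that of day 9 (log2 difference -2.28, SE 0.49; adjusted p = 0.232 in edgeR and 0.000631 in DESeq2). TRINITY_DN113046_c13_g1_i1 was at 1269, 5711 and 3895 on day 6 and at 513, 582 and 332 on day 9, with 69.4 to 133 in PBS livers (log2 difference -2.93, SE 0.58; adjusted p = 0.189 in edgeR and 0.000288 in DESeq2). Its day 6 livers spread widely, and the lowest of them was above every liver of day 9, as the choice of the class requires.

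TRINITY_DN101966_c3_g1_i7 and TRINITY_DN81720_c6_g1_i16 were also listed on day 1. The former had 288, 322 and 440 normalized counts in the day 1 livers, 563, 1007 and 624 in those of day 6, and 132, 209 and 50.2 in those of day 9 (log2 difference between days 9 and 6 of -2.49, SE 0.55; adjusted p = 0.232 in edgeR and 0.00336 in DESeq2). The latter had 103, 133 and 250, then 354, 421 and 286, then 95.3, 125 and 71.1 at the same times (log2 difference -1.86, SE 0.39; adjusted p = 0.223 in edgeR and 0.00206 in DESeq2). In both contigs the livers of day 6 were above those of day 1 without overlap. They were also above those of day 9 without overlap, as the choice of the class requires.

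**Figure D4:**
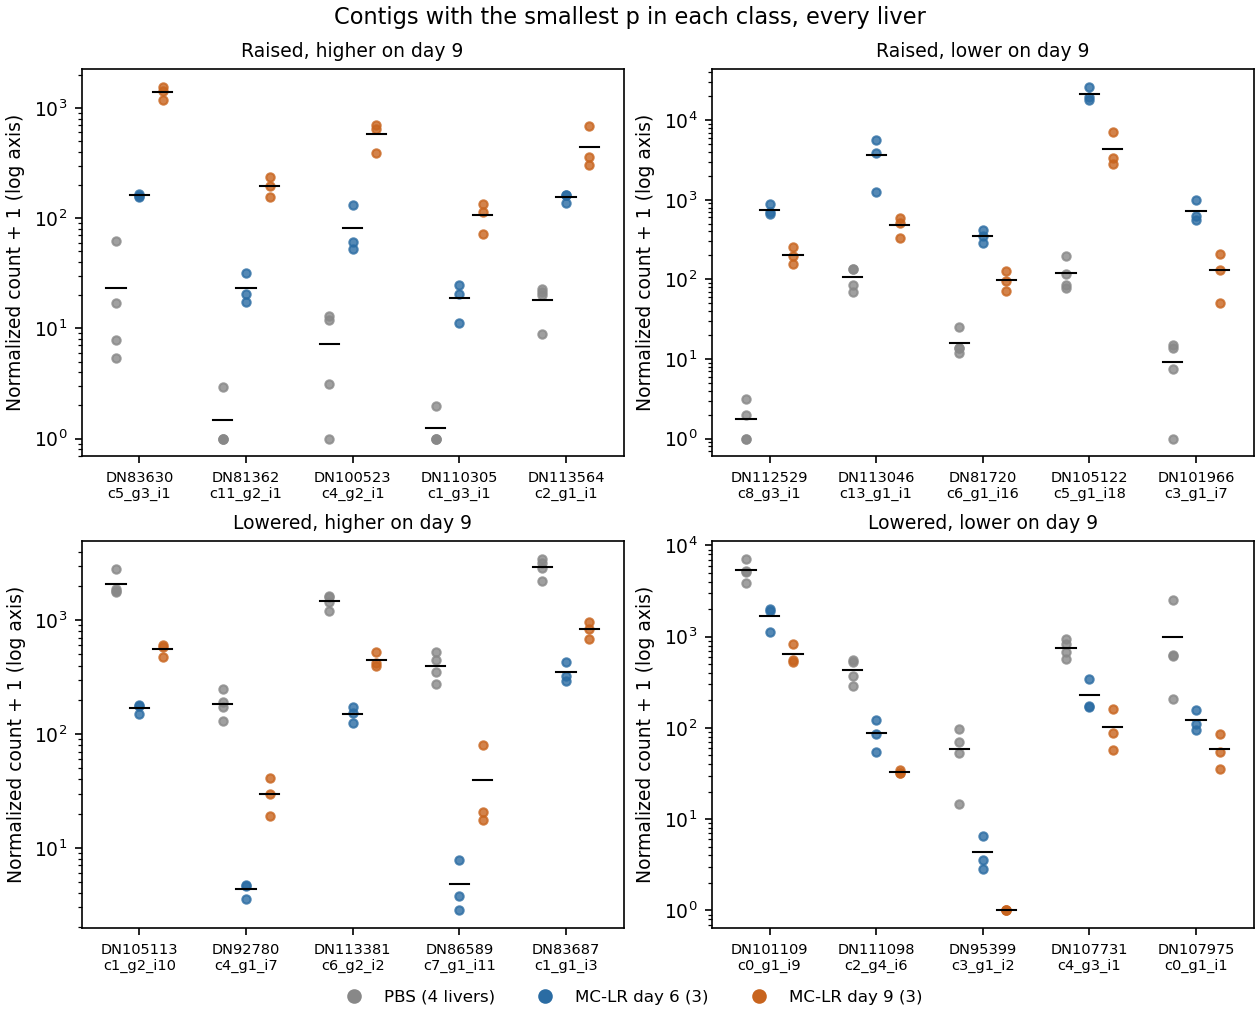
Normalized count + 1 (log axis) of the 5 contigs with the smallest p and non-overlapping livers in each of 4 classes, with every liver as a point and the group mean as a black bar. PBS livers are grey, day 6 blue and day 9 orange; in the upper left panel only the first contig, TRINITY_DN83630_c5_g3_i1, passed edgeR's test.

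Of the lowered contigs tested, 142 had all livers of day 9 above all of day 6 and 12 had all of them below, beside the same shares of 9.95% and 9.48% over all contigs. Their median log2 difference was 0.69, with 773 above 0 and 217 below. Among them, 56 had no read on day 6 and passed the minimum through day 9 alone, so they could only lie above 0. Of these 56, 23 were among the 142 without overlap. The median of the lowered contigs was 0.50 when at least 60 reads were asked for. Scaled by clean reads, 229 lay above and 5 below without overlap, and the median was 1.09. This scaling raises day 9 over day 6 by about 0.39, so it could not turn a median that was already above 0. The size of the median did depend on liver 3 of day 9. Without that liver it was 0.10 against -0.02 over all contigs, with 543 contigs above 0 and 432 below. Without overlap, 159 then lay above and 90 below, beside 78 and 175 of the raised contigs. Contigs separate more easily with 2 livers on day 9, so these counts do not compare with 142 and 12 or with the shares above. Of all 1346 lowered contigs, 960 (71.3%) had a day 9 mean nearer to the PBS mean than the day 6 mean was, 284 had it farther and 102 had equal means. In 191 contigs there was no read on day 6 but a read on day 9, so these could only be nearer. In 27 there was no read on day 9 alone, so these could only be farther. The counts are therefore a description. Without liver 3 of day 9, 648 (48.1%) were nearer, 513 farther and 185 equal. Of the 729 raised contigs, 480 (65.8%) were nearer with all livers and 443 (60.8%) without that liver. These counts of nearer means were made with the size factors only. Scaled by clean reads, 415 raised contigs had a log2 difference above 0 and 314 below.

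The lowered contig with the smallest p that was higher on day 9 was TRINITY_DN105113_c1_g2_i10. It had 2818, 1814, 1884 and 1760 normalized counts in PBS livers, 178, 174 and 150 in those of day 6, and 610, 472 and 577 in those of day 9. All livers of day 9 lay above those of day 6, as the choice of the class requires, and below every PBS liver. The class also requires a day 9 mean below the PBS mean. Liver 3 was not the highest of day 9 in this contig (log2 difference 1.72, SE 0.34, adjusted p = 0.189 in edgeR and 0.000325 in DESeq2). TRINITY_DN113381_c6_g2_i2 had 1195 to 1638 in PBS livers, 153, 172 and 123 on day 6, and 391, 424 and 530 on day 9 (log2 difference 1.59, SE 0.35; adjusted p = 0.232 in edgeR and 0.00407 in DESeq2). TRINITY_DN83687_c1_g1_i3 had 2223 to 3474 in PBS livers, 292, 324 and 429 on day 6, and 830, 686 and 973 on day 9 (log2 difference 1.25, SE 0.35; adjusted p = 0.322 in edgeR and 0.0507 in DESeq2). In TRINITY_DN113381_c6_g2_i2 and TRINITY_DN83687_c1_g1_i3 liver 3 was the highest of day 9. All of these abundant contigs had livers of day 9 that were close to each other, which the choice by smallest p favours.

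Low levels carried the other named contigs of this class. TRINITY_DN92780_c4_g1_i7 had 2.54, 3.74 and 3.64 normalized counts on day 6 and 18.0, 28.7 and 39.8 on day 9, against 129 to 246 in PBS livers (adjusted p = 0.232 in edgeR and 0.0143 in DESeq2). TRINITY_DN86589_c7_g1_i11 had 6.78, 2.81 and 1.82 on day 6 and 16.6, 19.6 and 79.6 on day 9, against 276 to 522 in PBS livers (adjusted p = 0.322 in edgeR and 0.0387 in DESeq2). In TRINITY_DN86589_c7_g1_i11 the high mean of day 9 came mainly from liver 3.

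A further 3 lowered contigs that DESeq2 called higher on day 9, singled out after their values were seen, had their highest value in liver 3 of that day as well. TRINITY_DN102409_c3_g1_i1 was at 17.8, 10.3 and 3.64 on day 6 and at 14.4, 15.4 and 533 on day 9, so that its days overlapped. TRINITY_DN113838_c9_g1_i3 had 0 reads in all livers of day 6 and was at 2.17, 1.40 and 83.5 on day 9. TRINITY_DN114057_c4_g1_i1 was at 83.0, 67.4 and 29.1 on day 6 and at 222, 109 and 731 on day 9. Their edgeR adjusted p was 0.3595, 0.3595 and 0.322.

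Of the 990 lowered contigs tested, 217 were lower still on day 9, and none of these passed in edgeR or DESeq2. In 12 of them all livers of day 9 lay below all of day 6. TRINITY_DN101109_c0_g1_i9 had the smallest p among these 12, with 5291, 5138, 7166 and 3848 normalized counts in PBS livers, 2002, 1924 and 1113 on day 6, and 525, 832 and 556 on day 9 (log2 difference -1.40, SE 0.39; adjusted p = 0.322 in edgeR and 0.0527 in DESeq2). TRINITY_DN111098_c2_g4_i6 had 120, 53.4 and 85.5 on day 6 and 31.0, 30.8 and 33.3 on day 9 (adjusted p = 0.322 in edgeR). TRINITY_DN95399_c3_g1_i2 had 2.54, 5.62 and 1.82 on day 6 and 0 reads in all livers of day 9 (adjusted p = 0.405 in edgeR and 0.393 in DESeq2). Its day 6 mean was 4.82-fold a floor of 3 reads over the day 9 group, a ratio that leaves out the spread between fish. The interval of its log2 difference, -9.64 to -0.618, allows a smaller difference than that. TRINITY_DN107731_c4_g3_i1 had 167, 175 and 342 on day 6 and 56.3, 86.2 and 159 on day 9 (adjusted p = 0.428 in edgeR). TRINITY_DN107975_c0_g1_i1 had 94.1, 158 and 110 on day 6 and 84.4, 34.3 and 53.5 on day 9 (adjusted p = 0.428 in edgeR). In each of these 5 contigs the mean of day 9 lay farthest from that of PBS, which follows from the choice of the class.

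In the contigs with the highest counts, no difference between days passed the test or exceeded the spread of the livers. TRINITY_DN78778_c0_g1_i16, the most abundant raised contig, had 108244, 32151 and 289694 normalized counts on day 6 and 194268, 63711 and 37454 on day 9, against 2922 to 4386 in PBS livers (log2 difference -0.54, 95% interval -2.51 to 1.43; adjusted p = 0.842 in edgeR). On day 1 its MC-LR livers had 35976, 46962 and 162843. It was high in every exposed liver and spread widely within each day.

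TRINITY_DN107508_c4_g1_i1 had 6433, 42787 and 42560 normalized counts on day 6 and 9685, 50746 and 13307 on day 9 (adjusted p = 0.913 in edgeR). TRINITY_DN109361_c4_g2_i1 had 12244, 19733 and 17579 on day 6 and 6312, 18782 and 15356 on day 9 (adjusted p = 0.855 in edgeR). The ranges of both days overlapped in these contigs.

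Among the lowered contigs that were most abundant in PBS livers, TRINITY_DN92810_c0_g1_i18 had 122733, 88816, 96243 and 30106 normalized counts there, 6334, 13992 and 2832 on day 6, and 3166, 1943 and 18538 on day 9 (log2 difference 0.03, 95% interval -1.96 to 2.02; adjusted p = 0.995 in edgeR). TRINITY_DN113448_c4_g2_i4 had 3006, 6693 and 1212 on day 6 and 1979, 771 and 10470 on day 9 (adjusted p = 0.935 in edgeR). In both, liver 3 of day 9 was the highest exposed liver and the other livers of that day were within or below the range of day 6. TRINITY_DN64718_c0_g1_i5 had 1379, 1990 and 569 on day 6 and 997, 159 and 1091 on day 9 (adjusted p = 0.672 in edgeR), and liver 2 was the lowest there.

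Many lowered contigs had no read in an exposed liver. Of the 1346, at least 1 read was found for 902, 841 and 822 in the livers of day 6 and for 1001, 882 and 1151 in those of day 9, against 1343 to 1346 in PBS livers. Every liver of day 9 other than liver 2 was above the range of day 6, and the difference between days did not pass the threshold (exact permutation test, two-sided, p = 0.2). No read on day 6 was found for 293 lowered contigs, which allows a mean of up to 0.896 normalized counts. No read on day 9 was found for 129, which allows a mean of up to 0.690, and none on either day for 102. The 293 contigs had a median PBS mean of 30.6 normalized counts. Liver 1 of day 9 had a read for 80 of them, liver 2 for 55 and liver 3 for 165, and liver 3 alone accounted for 83. All 729 raised contigs had a read in each of the 6 exposed livers. The limit set by a count of 0 covers counting error only.

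**Figure D5:**
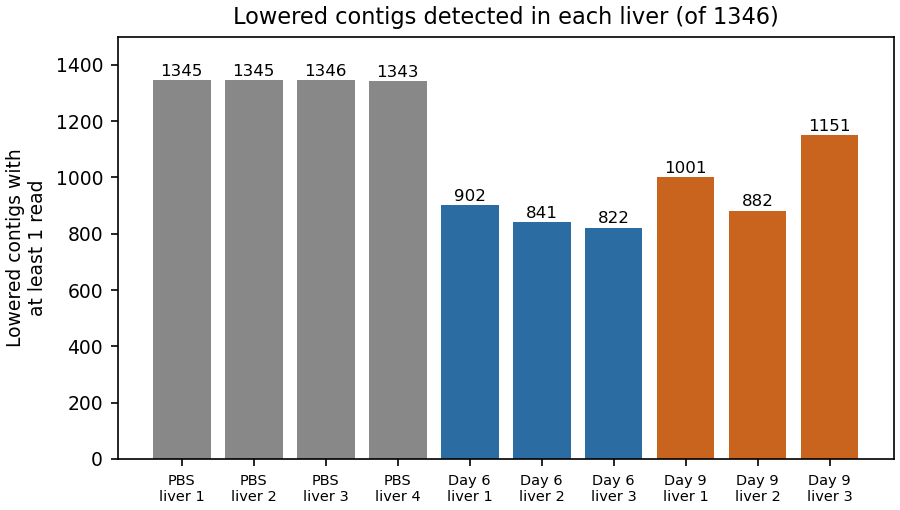
Number of the 1346 lowered contigs with at least 1 read in each liver (PBS grey, day 6 blue, day 9 orange; bars start at 0). PBS livers reach 1343 to 1346, the livers of day 6 reach 822 to 902, and liver 3 of day 9 reaches 1151. Reads are not scaled by the size factors, which are higher on day 9.

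The livers of day 9 also varied more among themselves. For raised contigs, the median SD of log2(normalized count + 1) was 0.447 on day 6 and 0.533 on day 9, and 425 of 729 contigs (58.3%) had the larger SD on day 9. For lowered contigs it was 0.631 and 0.817, with the larger SD on day 9 in 777 of 1346 (57.7%). Without liver 3 the day 9 value was 0.375 for raised and 0.466 for lowered contigs, below the values of day 6, though over 2 livers in place of 3. No test of spread was made with 3 fish a day.

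Some shared contigs were listed on day 1 too, 114 of the raised and 343 of the lowered. Over these 114 raised contigs the median of the group means was 10.4 normalized counts in PBS livers, 171 in MC-LR livers of day 1, 326 in those of day 6 and 174 in those of day 9. Over the 343 lowered contigs it was 104, 5.31, 1.54 and 5.39 in the same order. The day 1 values share the PBS livers with the others and are given side by side only. Of the 114 raised contigs, 40 had all livers of day 9 below day 6 and 0 had them above, beside 151 and 29 of all 729 raised contigs and shares of 9.48% and 9.95% over all contigs tested. Their median log2 difference was -0.73, against -0.20 in the 615 raised contigs not listed on day 1. It was -0.48 without liver 3 of day 9 and -0.32 when scaled by clean reads. The latter scaling raises differences by about 0.39, so it could not turn the sign of this median. Of the lowered contigs tested, 260 were listed on day 1 and had a median of 1.43, against 0.50 in the other 730. Without liver 3 of day 9 these medians were 0.35 and 0.04. The median SE was 1.40 in the 260 contigs and 0.94 in the 730. Of the 343 lowered contigs, 83 did not reach the minimum of 10 reads. With day 6 levels this low, others could reach it through day 9, so both medians are a description only.

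The 2075 contigs belonged to 1942 putative genes of the assembly, of which 120 had several shared contigs, 253 contigs in all and up to 4 in a gene. In 96 of these genes at least 2 contigs were tested. All of their contigs were above 0 in 62 genes and below 0 in 20, and 14 genes held both signs. Contigs of a gene can share reads, and over all contigs tested the median lay at 0.20.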

How the data were processed

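Poly(A) RNA of livers was sequenced with a stranded kit by the authors, who trimmed reads with Trimmomatic 0.36, assembled them with Trinity, filtered contigs by abundance with RSEM and tested each exposed group against the PBS fish of day 1 with DESeq2 1.28.0. The read counts per contig were deposited unnormalized by the authors. The deposited base mean, a signal in normalized counts, is the authors' mean over the fish of a table after division by size factors. Columns with the authors' fold changes and p-values were not used. The contig sequences and lengths were not used here.

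Size factors were solved from the base means by least squares and checked by recomputing every base mean. The day 9 table was brought to the scale of the day 6 table by the geometric mean ratio of the PBS size factors (1.12, range over fish 1.11 to 1.13). The PBS counts of both tables were identical. Groups and replicates came from the labels, each fish being 1 sample. Contigs with at least 10 reads over the 6 exposed fish were tested with edgeR 4.0.16 (quasi-likelihood, two-sided, R 4.3.3, common biological coefficient of variation 0.637) and p-values were adjusted by Benjamini-Hochberg over the 1719 contigs. DESeq2 1.42.0 was an alternative tool, run with its outlier screen and its own filter by mean count switched off. SE and intervals are on the log2 scale. Single values per liver were compared by exact permutation over the 20 splits of 6 fish. The tests were checked on simulated data. A group without reads was given a floor of 3 reads over the group. Alternatives were clean reads (from the authors' sequencing table), TMM, median of ratios, other filters, other bridges, the PBS fish in the fit, the authors' thresholds, and each fish left out. Leaving out a fish for the counts of non-overlapping contigs was chosen after seeing the data, as was their scaling by clean reads.

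Named contigs are the 5 with the smallest p and non-overlapping livers in each of 4 classes (raised or lowered, higher or lower on day 9) and the 3 most abundant raised and lowered contigs. The members, classes and tests were chosen with earlier results of these data known. The tables hold only contigs selected by the authors on these same fish.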

Additional observations from a re-analysis of the deposited data

Results flagged for a closer look

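In the 4 PBS livers, 5 of the 28 groups of values checked had 1 fish far from the others, by the gap to its nearest neighbour as a share of the whole range (above Dixon's critical value). Chance flags about 1 in 20 groups, and these contigs share their fish. TRINITY_DN81362_c11_g2_i1 had 1.96 normalized counts in PBS liver 4 and 0 in the others (gap share 1). TRINITY_DN110305_c1_g3_i1 had 0.995 in PBS liver 2 and 0 in the others (gap share 1), which in both contigs is a level of very few reads. TRINITY_DN81720_c6_g1_i16 had 23.9 in PBS liver 2 against 10.8 to 12.9 (gap share 0.841). TRINITY_DN105113_c1_g2_i10 had 2818 in PBS liver 1 against 1760 to 1884 (gap share 0.883). TRINITY_DN109361_c4_g2_i1 had 152 in PBS liver 3 against 68.9 to 74.6 (gap share 0.931). The PBS livers do not enter the test of day 9 against day 6, and the exposed groups of 3 fish were too small to be checked in this way.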

How the results depend on the processing

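The count of contigs higher on day 9 was 1 and changed to 2 with clean reads as scaling, with median of ratios and with no filter beyond 1 read, and to 0 with the PBS fish in the fit and at the authors' thresholds; with each fish left out it ranged from 0 to 2, likewise for raised contigs alone (2 with clean reads). DESeq2 gave 11 higher and 15 lower. With clean reads the median log2 difference was 0.60 over all contigs and 0.13 over raised contigs, and the difference of the raised sums was -39045 in place of -179407. Without each fish, the median of lowered contigs ranged from 0.10 to 0.88, the lowest being without liver 3 of day 9. Counts of non-overlapping contigs, where fewer livers a day separate more easily, ranged from 37 to 78 (raised, higher), 175 to 232 (raised, lower), 159 to 283 (lowered, higher) and 18 to 90 (lowered, lower), and with clean reads were 92, 63, 229 and 5. With the replicate number as a replicate block, 0 contigs were called (adjusted p of TRINITY_DN83630_c5_g3_i1 0.213 in edgeR) and the median was 0.14 over all contigs. Same-numbered livers are of different fish and deviated with correlations of 0.09, -0.09 and -0.25. Whether they share any factor besides the number was not tested. Of 26 named contigs, 21 kept their sign in every setting, and the others were among the 6 most abundant. The named contigs outside these 6 were chosen for livers that do not overlap between days. Leaving out a fish could therefore not turn their sign. Where not shown by the setting itself, the cause was not tested. The median SE on the log2 scale was 1.04 for lowered and 0.47 for raised contigs, with 3 fish a day.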

Other observations

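In 2 putative genes of the assembly, singled out after their values were seen, 1 shared contig was raised and another lowered against PBS. In the gene of TRINITY_DN112040_c1_g1_i13 that isoform had 39.7 ± 9.99 normalized counts in PBS livers (SD, n = 4), 184 ± 70.2 on day 6 and 250 ± 72.5 on day 9 (SD, n = 3 each), while TRINITY_DN112040_c1_g1_i4 had 1480 ± 503, 28.4 ± 19.0 and 67.6 ± 103. In the gene of TRINITY_DN97560_c8_g1_i17 that isoform had 10.9 ± 5.70, 111 ± 9.03 and 93.8 ± 15.1, while TRINITY_DN97560_c8_g1_i11 had 637 ± 277, 36.7 ± 28.7 and 34.1 ± 28.3. None of these contigs passed the test of day 9 against day 6 (edgeR's quasi-likelihood test with Benjamini-Hochberg adjustment, adjusted p of 0.693 to 0.976). How reads were divided between isoforms of a gene was not tested here.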
